A study of Danio rerio with 9 samples.

Results

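Focadhesin, encoded by focad, and the SKI complex stand at the meeting point of messenger RNA decay and ribosome rescue. The genes described here are focad, the 3 core SKI genes skic2, skic3 and skic8, and the ribosome rescue genes hbs1l and pelo, which are 6 of the 33716 gene IDs measured. They were chosen by name, with the older names skiv2l, ttc37 and wdr61 accepted for the SKI genes, and each name matched 1 gene ID. All 6 passed the filter on low values and were among the 13290 genes tested.

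The SKI complex threads messenger RNA out of the ribosome and feeds it, 3′ end first, into the cytoplasmic RNA exosome. SKIC2 is its RNA helicase, SKIC3 its tetratricopeptide scaffold and SKIC8 its WD-repeat subunit, which also belongs to the PAF1 transcription complex. HBS1L and pelota are relatives of the translation release factors and split ribosomes that have stalled on a message. In humans a short product of HBS1L links the SKI complex to the exosome. Human focadhesin has been described as a partner of the SKI complex that keeps its proteins stable, and its loss as a cause of liver disease. The libraries measured here hold transcripts, not proteins.

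RNA of zebrafish liver was sequenced in 9 libraries, 3 in each of 3 groups. The wild-type fish, named AB in the sample titles, and the maternal-zygotic pdia6-/- fish were 3.5 months old, while an age for the maternal-zygotic focad-/- fish is not given in the labels. Maternal-zygotic mutants carry neither the maternal supply of a gene product in the egg nor their own, and pdia6 encodes a disulfide isomerase located in the endoplasmic reticulum (ER). Neither the alleles nor the origin of the 3 libraries of a group (separate fish or not) are given in the labels, and p-values therefore measure a spread between libraries that may be technical.

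The libraries held 46.1 to 54.5 M reads assigned to genes. Hepatocyte markers summed to 171000 to 196000 FPKM (a read count divided by gene length and library size) in wild type, 150000 to 159000 in the libraries labelled focad null and 170000 to 189000 in those labelled pdia6 null, so the libraries labelled focad null were lower without overlap. Erythroid markers, of which 5 gene IDs were matched for 8 symbols, were also lower there without overlap. They summed to 45.5 to 117 FPKM there, against 130 to 224 in wild type and 202 to 594 in the libraries labelled pdia6 null. Intestine markers, of which 12 gene IDs were matched for 17 symbols, summed to 8.99 to 24.7 FPKM in wild type, 108 to 7810 in the libraries labelled focad null and 4.42 to 9.13 in those labelled pdia6 null. The libraries labelled focad null were thus higher in intestine markers without overlap. Exocrine pancreas markers summed to 378 to 1310, 987 to 4910 and 433 to 1030 FPKM in the same order. Endocrine pancreas markers, of which 4 gene IDs were matched for 7 symbols, summed to 0.399 to 3.08, 8.15 to 211 and 4.01 to 9.86 FPKM. Leukocyte markers summed to 1400 FPKM in the library labelled focad null replicate 2 and to 103 to 228 in the other 8, with the lysozyme gene lyz at 0 throughout. Stellate and fibroblast markers (28.5 FPKM) and skeletal muscle markers (7.46 FPKM) were also highest in focad null replicate 2. Ovary markers summed to 5.66 FPKM in the library labelled pdia6 null replicate 2 and to 0.0629 to 0.44 in the other 8. The part of these other cells in the results below was not tested, and in whole tissue fewer cells of a type and less RNA per cell cannot be told apart.

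The targeted gene was examined first. Focad (ENSDARG00000022020) levels were 1.13, 0.521 and 1.03 FPKM for replicates 1 to 3 of wild type. They were 0.276, 0.528 and 0.240 FPKM for the libraries labelled focad null and 1.21, 0.933 and 1.09 FPKM for those labelled pdia6 null. Replicates 1 and 3 of the libraries labelled focad null lay below every other library, whereas replicate 2 fell between the wild-type values, next to replicate 2 of wild type. By this measure replicate 2 goes against its label, although transcripts can persist from a null allele, and the lesion in the gene is not given in the sources used here. Focad was the member with the fewest reads, from 41 to 70 per library labelled focad null, from 67 to 169 in wild type and from 158 to 197 in the libraries labelled pdia6 null. In the RefSeq annotation of another build, GRCz12tu, focad overlaps mllt3, and the strand setting of the authors' counting is not given in the sources used here. Mllt3 stood at 0.386 FPKM in the library labelled focad null replicate 2 and between 0.0136 and 0.0904 FPKM in the other 8 libraries. Its part in the focad value of that library was not tested. Pdia6 stood at 44.3 FPKM in the library labelled pdia6 null replicate 1 and at 0.902 and 0.913 FPKM in replicates 2 and 3. In wild type it stood at 14.2 to 265 FPKM, an 18.6-fold range, and the level in replicate 1 lay inside it. So wide a range cannot decide whether replicate 1 goes against its label. The ER chaperone gene hspa5 stood at 2360 FPKM in that library and at 734, 10.7 and 199 FPKM in wild type. Its part in the pdia6 levels was not tested. The names focad null and pdia6 null below are those of the labels.

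The mean focad level was 0.348 ± 0.157 FPKM (SD, n = 3) in the libraries labelled focad null, 0.894 ± 0.327 in wild type and 1.08 ± 0.137 in the libraries labelled pdia6 null. Against wild type the difference in log2(FPKM + 1) was -0.48 (SE 0.18, 95% interval -0.90 to -0.07), which did not pass the limma test over all genes (adjusted p = 0.276). The added 1 shrinks differences of low genes: with limma voom on the recovered reads the difference was -1.45 in log2 reads, a ratio of 0.367 with an interval from 0.180 to 0.746 and an adjusted p of 0.239. In the authors' deposited table the log2 ratio was -1.41 with an adjusted p of 0.805. An exact two-sided permutation test against wild type alone gave p = 0.2, where 0.1 is the smallest that 3 libraries against 3 can give. Because such a test cannot pass 0.05, wild type was also pooled with the libraries labelled pdia6 null, a different mutant. Set against these 6 other libraries, the difference was -0.55 in log2(FPKM + 1). The exact two-sided permutation test over the 84 ways to choose 3 of 9 libraries gave p = 0.0476, where 0.0238 is the smallest it can give. Leaving out any library other than wild-type replicate 2 took this p to between 0.0714 and 0.143, with differences from -0.65 to -0.50. With a library labelled focad null left out, 0.0714 is the smallest p the test can give, so it could not pass 0.05 there. Without wild-type replicate 2 the p was 0.0357.

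**Figure D1:**
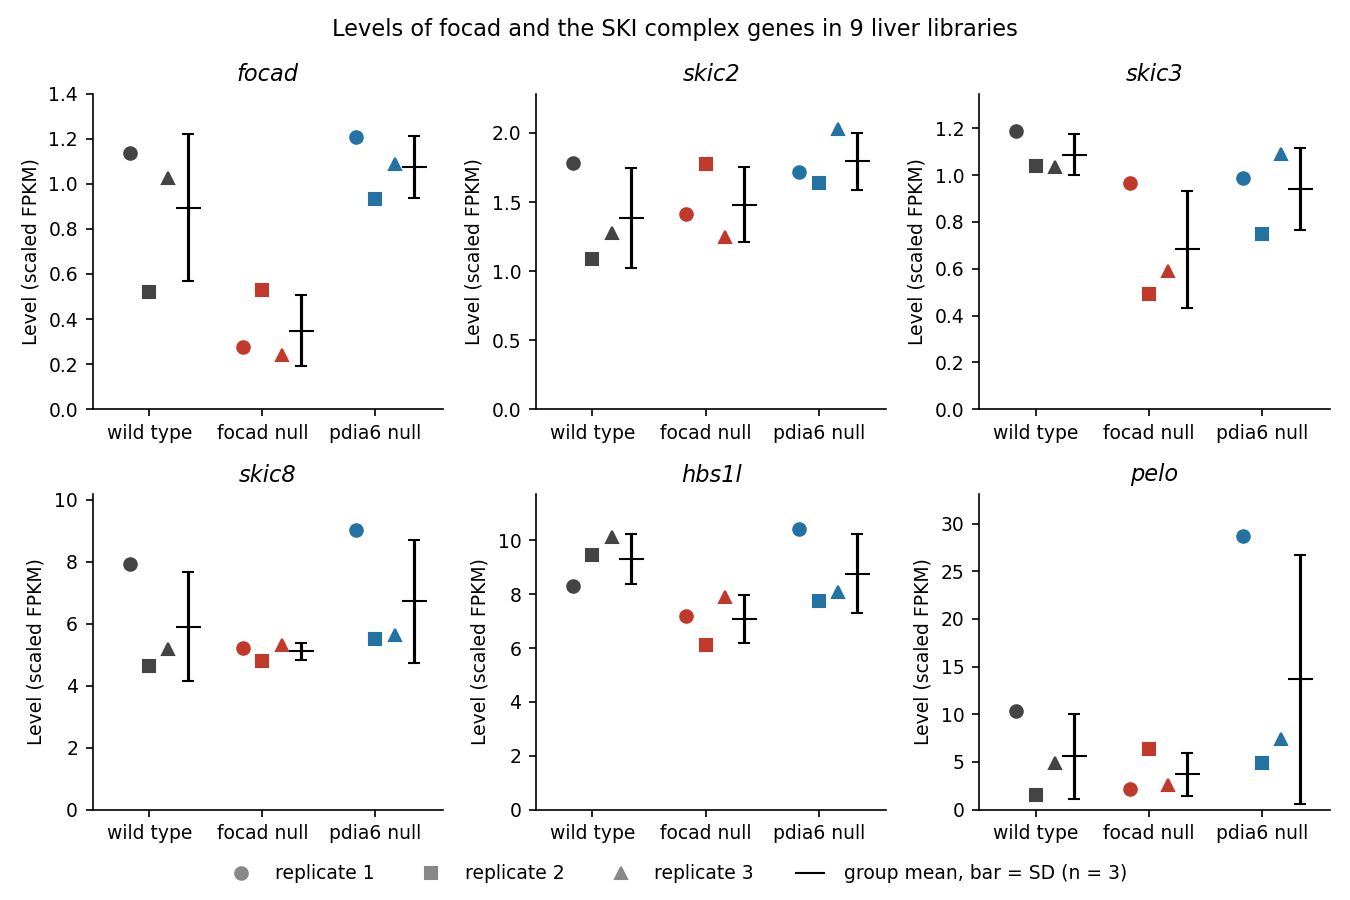
Levels of the 6 genes in scaled FPKM (vertical axis, different in each panel) by group (horizontal axis), with 1 point per library and the group mean with its SD (n = 3) as a bar. Of the focad points, 2 in the libraries labelled focad null lie below all others and the other, at 0.528 FPKM, beside wild-type replicate 2, while pelo reaches 28.7 FPKM in a single library.

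In wild-type liver the members fell into an upper and a lower set. Hbs1l stood at 9.30 ± 0.928 FPKM (SD, n = 3), skic8 at 5.90 ± 1.76 and pelo at 5.58 ± 4.43. Skic2 stood at 1.38 ± 0.360, skic3 at 1.09 ± 0.0871 and focad at 0.894 ± 0.327 FPKM. The sets met in wild-type replicates 1 and 2, where the highest skic2 value (1.78 FPKM) lay above the lowest pelo value (1.51 FPKM). For comparison, the median gene tested stood at 3.15 FPKM in wild type. Skic8 was above skic2 and skic2 above skic3 in 9 of 9 libraries, so the core SKI genes kept the order skic8, skic2, skic3 in each. Skic3 was above focad in 6 of 9 libraries, and neither this pair nor skic8 and pelo in wild type were apart beyond their spread. FPKM is a level per length, which is what allows these genes to be set side by side, but the core genes were counted over implied lengths from 941 bases for skic8 to 4758 for skic3.

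None of the 6 members was called in any of the 3 comparisons by limma at an adjusted p below 0.05. The share of all genes called was 1.56% for focad null against wild type (0.625% higher and 0.933% lower). It was 1.23% for pdia6 null against wild type (0.519% higher and 0.707% lower) and 1.20% for focad null against pdia6 null (0.609% higher and 0.594% lower). A count of 0 of 6 lies close to these shares and says nothing particular about the members. Unadjusted, the limma p was below 0.05 for 1 of 6 members (focad) in focad null against wild type, 0 of 6 in pdia6 null against wild type and 1 of 6 (focad) in focad null against pdia6 null. Of all genes 14.7%, 12.5% and 17.9% had such a p, so these counts lie near the background. Limma voom called 0 of the 6 in each comparison and 0.700%, 0.625% and 0.564% of all genes, and the authors' deposited tables, made for the 2 comparisons with wild type, called 0 of the 6 in both. Those tables called 1.15% of 25700 genes for focad null and 1.69% of 25307 genes for pdia6 null. The 2 comparisons with wild type share its 3 libraries and are not independent of each other.

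Libraries of the 2 groups did not overlap for 2 of 6 members in focad null against wild type, where 20.0% of all genes did not. The count was 0 of 6 for pdia6 null against wild type, beside 20.6% of all genes, and 2 of 6 for focad null against pdia6 null, beside 24.4%. The members without overlap against wild type were skic3 and hbs1l, both at lower levels in the libraries labelled focad null. The hepatocyte and erythroid marker sums of these libraries were lower as well, and their intestine marker sums were higher. The members without overlap against pdia6 null were focad and skic8, again at lower levels in the libraries labelled focad null. The estimated difference was below zero for 5 of 6 members in focad null against wild type, for 2 of 6 in pdia6 null against wild type and for 6 of 6 in focad null against pdia6 null, beside 48.8%, 50.8% and 48.6% of all genes. With no scaling the 3 counts were 5, 1 and 6, beside 40.7%, 42.5% and 49.2% of all genes. The first count also depended on single libraries. Without wild-type replicate 1 the focad null differences of skic2 (0.18), skic8 (0.052) and pelo (0.184) were above zero. Without the library labelled focad null replicate 2 all 6 were below zero.

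**Figure D2:**
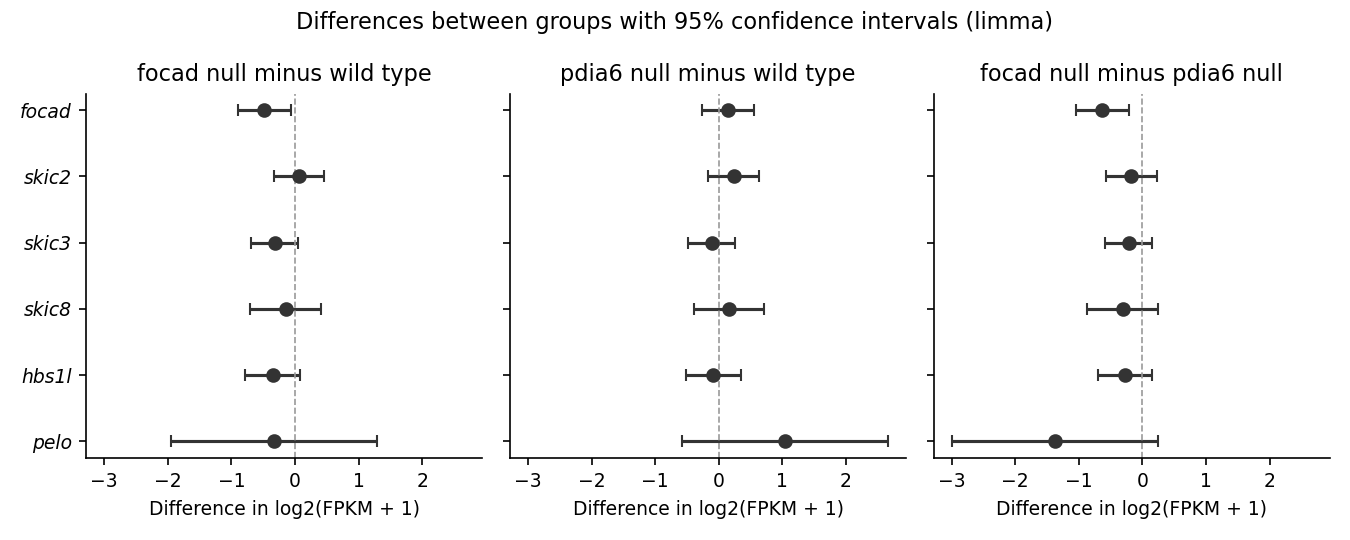
Difference in log2(FPKM + 1) between groups (horizontal axis) for each member (vertical axis) in the 3 comparisons, with points for the limma estimate and bars for its 95% interval. The focad intervals lie below zero in both comparisons of the libraries labelled focad null, at -0.48 and -0.63, no member passed the adjusted test, and the pelo intervals are the widest.

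Among the core SKI genes, the helicase gene skic2 (ENSDARG00000062206) stood at 1.78, 1.09 and 1.28 FPKM for wild type, at 1.42, 1.78 and 1.25 for libraries labelled focad null and at 1.72, 1.64 and 2.03 for those labelled pdia6 null. The 3 groups overlapped, and the whole range over 9 libraries was 1.86-fold. Skic2 differed by 0.06 in log2(FPKM + 1) between focad null and wild type (limma, 95% interval -0.34 to 0.46, adjusted p = 0.921). On the scale of recovered reads its ratio was 1.06 with an interval from 0.710 to 1.59, so a loss of skic2 transcript as large as the ratio of 0.367 for focad lay outside the interval. The focad ratio had its own interval, from 0.180 to 0.746, which overlapped that of skic2, so smaller losses of skic2 lay inside. Between pdia6 null and wild type skic2 differed by 0.24 in log2(FPKM + 1) (limma, interval -0.16 to 0.64, adjusted p = 0.656).

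The scaffold gene skic3 (ENSDARG00000074314) stood at 1.19, 1.04 and 1.04 FPKM for wild type, a spread of 1.15-fold. Skic3 levels were 0.965, 0.494 and 0.590 FPKM for the libraries labelled focad null and 0.985, 0.749 and 1.09 for those labelled pdia6 null. All 3 libraries labelled focad null lay below all 3 of wild type, but replicate 1 lay within the pdia6 null range. The difference from wild type was -0.32 in log2(FPKM + 1) (limma, interval -0.69 to 0.05, adjusted p = 0.403), and an exact two-sided permutation test gave 0.1, the smallest p that 3 libraries against 3 can reach. On recovered reads the skic3 ratio was 0.616 with an interval from 0.384 to 0.986 and an adjusted p of 0.398. The lowest skic3 value came from the library labelled focad null replicate 2, which also held the highest sum of intestine markers. Without it the difference was -0.24 (limma adjusted p = 0.592). In the RefSeq annotation skic3 overlaps fam81b, which had no reads in 7 of 9 libraries and at most 0.0357 FPKM.

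The gene skic8 (ENSDARG00000007755), shared with the PAF1 complex, stood at 7.91, 4.62 and 5.17 FPKM for wild type and at 5.21, 4.79 and 5.31 for the libraries labelled focad null. Skic8 levels were 9.01, 5.50 and 5.63 FPKM for those labelled pdia6 null. The first replicates of wild type and of the libraries labelled pdia6 null were high, and the other 7 libraries lay between 4.62 and 5.63 FPKM. The difference between focad null and wild type was -0.15 in log2(FPKM + 1) (limma, interval -0.71 to 0.41, adjusted p = 0.846), and without wild-type replicate 1 it was 0.05. Between pdia6 null and wild type it was 0.16 (interval -0.40 to 0.72, adjusted p = 0.875), and without pdia6 null replicate 1 it was -0.04. The direction of skic8 therefore rested on 1 library in each comparison with wild type. In the RefSeq annotation skic8 overlaps a long noncoding RNA gene, whose reads were not analysed here.

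Of the rescue factors, hbs1l (ENSDARG00000036778) was the best covered member, with 982 to 2067 reads per library. Its levels were 8.30, 9.45 and 10.1 FPKM for wild type, 7.19, 6.12 and 7.89 for the libraries labelled focad null and 10.4, 7.75 and 8.10 for those labelled pdia6 null. As for skic3, every library labelled focad null lay below every wild-type library, and the lowest was replicate 2. The difference from wild type was -0.35 in log2(FPKM + 1) (limma, interval -0.78 to 0.08, adjusted p = 0.427), with an exact permutation p of 0.1. Without the library labelled focad null replicate 2 it was -0.26 (adjusted p = 0.628). Between pdia6 null and wild type hbs1l differed by -0.08 (interval -0.51 to 0.35, adjusted p = 0.931).

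The hbs1l partner pelo (ENSDARG00000055477) varied far more than the rest. Its levels were 10.3, 1.51 and 4.93 FPKM for wild type and 2.19, 6.33 and 2.58 for the libraries labelled focad null. Pelo levels were 28.7, 4.90 and 7.39 FPKM for those labelled pdia6 null. Values within a group were spread up to 6.82-fold, and the library labelled pdia6 null replicate 1 was 19.0-fold above wild-type replicate 2. The SD within groups was 1.02 in log2(FPKM + 1), at the 94.4th percentile of all genes tested and at the 92.3rd percentile of the 2222 genes within 1.5-fold of its level. For the other 5 members it was 0.15 to 0.29, below the median of 0.35 over all genes. Among genes within 1.5-fold of their level they lay between the 8.86th (hbs1l) and the 35.3rd percentile (skic8). The added 1 shrinks this SD for low genes, and focad still spanned 2.18-fold within wild type.

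The pelo differences were -0.34 for focad null (limma, interval -1.96 to 1.29, adjusted p = 0.889) and 1.04 for pdia6 null (interval -0.58 to 2.66, adjusted p = 0.625), each against wild type. The first was 0.18 without wild-type replicate 1. The second was 0.36 without the library labelled pdia6 null replicate 1 and 1.56 without wild-type replicate 1. Between focad null and pdia6 null pelo differed by -1.38 (adjusted p = 0.350), and by -0.69 without pdia6 null replicate 1. The library labelled pdia6 null replicate 1 held the highest level of 4 of the 6 members (focad, skic8, hbs1l and pelo), and wild-type replicate 2 the lowest level of 3 (skic2, skic8 and pelo).

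Values of an ER chaperone are given beside those of pelo because the same libraries were highest in both. Hspa5, the main chaperone of the ER lumen, stood at 734, 10.7 and 199 FPKM for wild type, at 8.64, 19.6 and 19.8 for libraries labelled focad null and at 2360, 16.3 and 37.9 for those labelled pdia6 null. The library with the highest hspa5 level, pdia6 null replicate 1, was also the highest for pelo, and wild-type replicate 1 was second in both. This match was not particular to pelo, since skic8 was highest in the same libraries, at 9.01 and 7.91 FPKM. The lowest libraries differed, with hspa5 lowest in focad null replicate 1 (8.64 FPKM) and pelo in wild-type replicate 2 (1.51 FPKM). The part of hspa5 level, or of the label of pdia6 null replicate 1, in the pelo values was not tested.

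The remaining values for focad null against pdia6 null completed the set. Focad differed by -0.63 in log2(FPKM + 1) (limma, interval -1.04 to -0.21, adjusted p = 0.145), with no overlap between the groups and an exact permutation p of 0.1. The ratio on recovered reads was 0.297 with an interval from 0.150 to 0.589. Skic8 differed by -0.31 (adjusted p = 0.549), hbs1l by -0.27 (adjusted p = 0.495), skic3 by -0.21 (adjusted p = 0.532) and skic2 by -0.18 (adjusted p = 0.640), all by limma.

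Ratios of members within a library do not depend on how libraries are scaled, and 4 pairs were compared. The ratio of focad to skic2 was 0.192 to 0.297 in the 3 libraries labelled focad null, 0.478 to 0.805 in wild type and 0.536 to 0.701 in those labelled pdia6 null. Replicate 2 of the libraries labelled focad null, which overlapped wild type in its focad level, was thus below every wild-type and pdia6 null library in this ratio. Its gap from wild-type replicate 2 came from skic2, at 1.78 against 1.09 FPKM, and not from focad, at 0.528 against 0.521 FPKM. The ratio therefore does not show a lower focad level in that library than in wild-type replicate 2. The log2 ratio differed by -1.45 between the libraries labelled focad null and the 6 others. An exact two-sided permutation test gave p = 0.0238, the smallest possible with 3 libraries against 6, and 0.0952 after Benjamini-Hochberg adjustment over the 4 pairs, which does not pass 0.05. With single libraries left out the difference ran from -1.66 to -1.34. The exact permutation p, adjusted over the 4 pairs, then ran from 0.143 to 0.286. With fewer libraries the smallest p this test can give is larger.

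The ratio of skic3 to skic2 was 0.278 to 0.682 in the libraries labelled focad null, 0.666 to 0.953 in wild type and 0.457 to 0.573 in those labelled pdia6 null. The libraries labelled pdia6 null lay below all of wild type in this ratio, and those labelled focad null overlapped both groups. The log2 ratio of skic3 to skic2 differed by -0.53 between focad null and the 6 others (exact permutation p = 0.238, adjusted over the 4 pairs 0.476). Without the library labelled focad null replicate 2 it differed by -0.19. The ratio of skic8 to skic2 differed by -0.18 (exact permutation p = 0.5, adjusted 0.524), and by 0.01 without that same library. The ratio of pelo to hbs1l spanned 0.160 to 2.75 over all libraries and differed by -0.64 (exact permutation p = 0.524, adjusted 0.524). It differed by -1.21 without the library labelled focad null replicate 2 and by -0.26 without pdia6 null replicate 1.

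**Figure D3:**
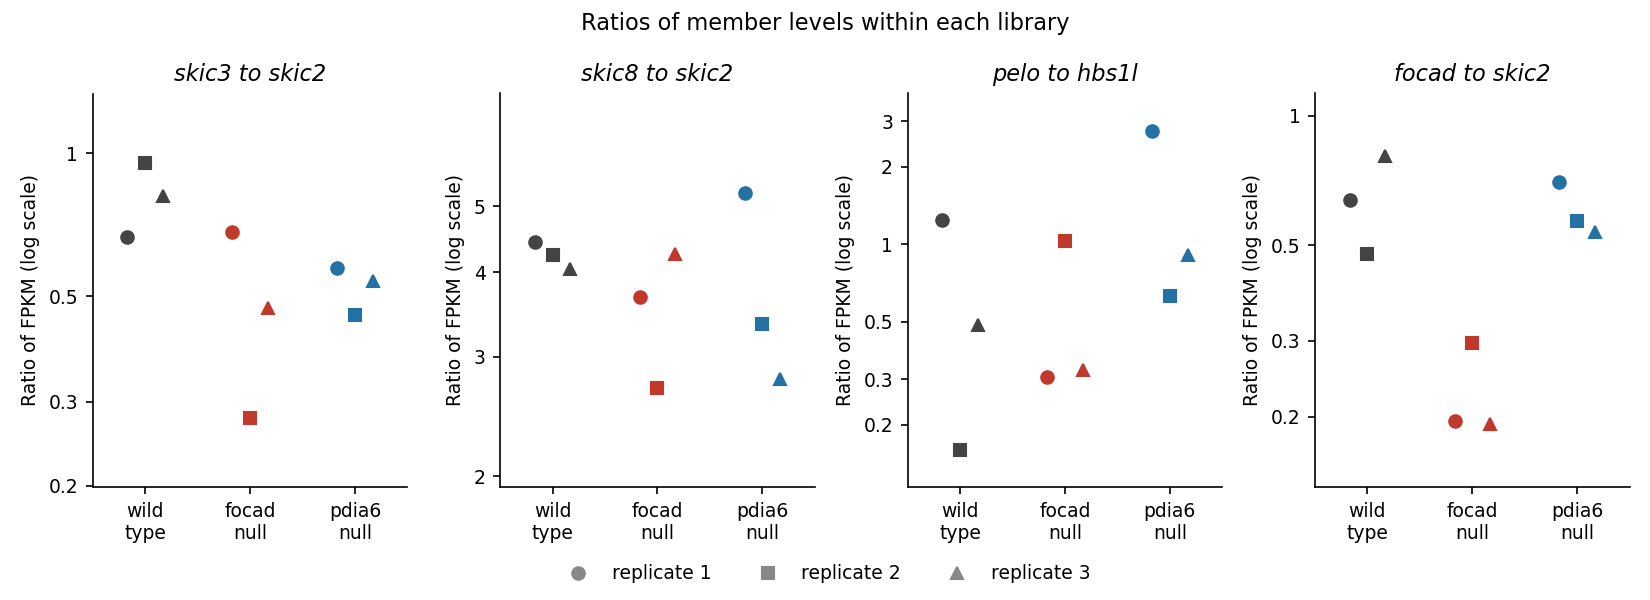
Ratios of FPKM within each library (vertical axis, log scale, different in each panel) for 4 pairs of members by group (horizontal axis), with 1 point per library. The 3 libraries labelled focad null sit at 0.192 to 0.297 in the ratio of focad to skic2, below the 0.478 to 0.805 of the 6 others. Between replicate 2 of focad null and replicate 2 of wild type, this gap comes from skic2. In the other 3 pairs the libraries labelled focad null overlap the 6 others.

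Genes whose log2(FPKM + 1) values followed those of a member most closely were ranked by the root mean square difference, each gene centred on its mean over the 9 libraries. The nearest genes given here leave out the other members and genes with no name or only a placeholder name. Nearest to focad were rabgef1, an exchange factor for the endosomal GTPase Rab5, at 0.0578, dlg1b, a membrane scaffold, at 0.0713, and tecpr1a, a tether of autophagosomes and lysosomes, at 0.102. These compare with a root mean square of 0.308 for focad about its own mean. Rabgef1 stood at 5.66 FPKM in the library labelled focad null replicate 2 and at 5.78 in wild-type replicate 2, close together as for focad. Tecpr1a stood at 0.432 and 0.743 FPKM in those libraries, and its 3 libraries labelled focad null, at 0.286 to 0.432, lay below all others. By this measure, among all genes tested with placeholder names included, skic8 ranked 516 from focad, skic2 537, skic3 592, hbs1l 753 and pelo 11050. The measure counts the size of the swings as well as their direction, and the swings of pelo (1.02 about its mean) were larger than those of focad. Pearson correlations with focad, which leave out the size of the swings, were 0.759 for pelo, 0.623 for skic8 and 0.565 for skic2. They were 0.546 for skic3 and 0.51 for hbs1l. The added 1 shrinks the swings of a low gene such as focad more than those of rabgef1 or dlg1b, so these ranks do not compare fold changes. Focad spanned 5.03-fold, while rabgef1 ran from 4.22 to 8.93 FPKM and dlg1b from 6.04 to 12.3 FPKM.

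Nearest to skic2 were dhx57, a DEAH-box helicase gene, at 0.0720, usp40, a deubiquitinase gene, at 0.0738, and tgfbrap1, a gene of endosomal tethering, at 0.0739, beside 0.167 for skic2 about its own mean. Among all genes tested, the other members ranked from 1873 (skic3) to 11917 (pelo). For pelo, which was added to this ranking after its values were seen, the nearest were srp14, of the signal recognition particle, at 0.285, ldah, a lipid droplet hydrolase, at 0.327, and pmm2, a phosphomannomutase, at 0.332, beside 1.02 for pelo. Srp14 peaked at 31.2 FPKM in the library labelled pdia6 null replicate 1 and was lowest, at 4.11 FPKM, in wild-type replicate 2, as pelo was. The ranking is a description over 9 libraries, with no test. The nearest genes were chosen for their likeness, so what they share with a member in single libraries follows from that choice.

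**Figure D4:**
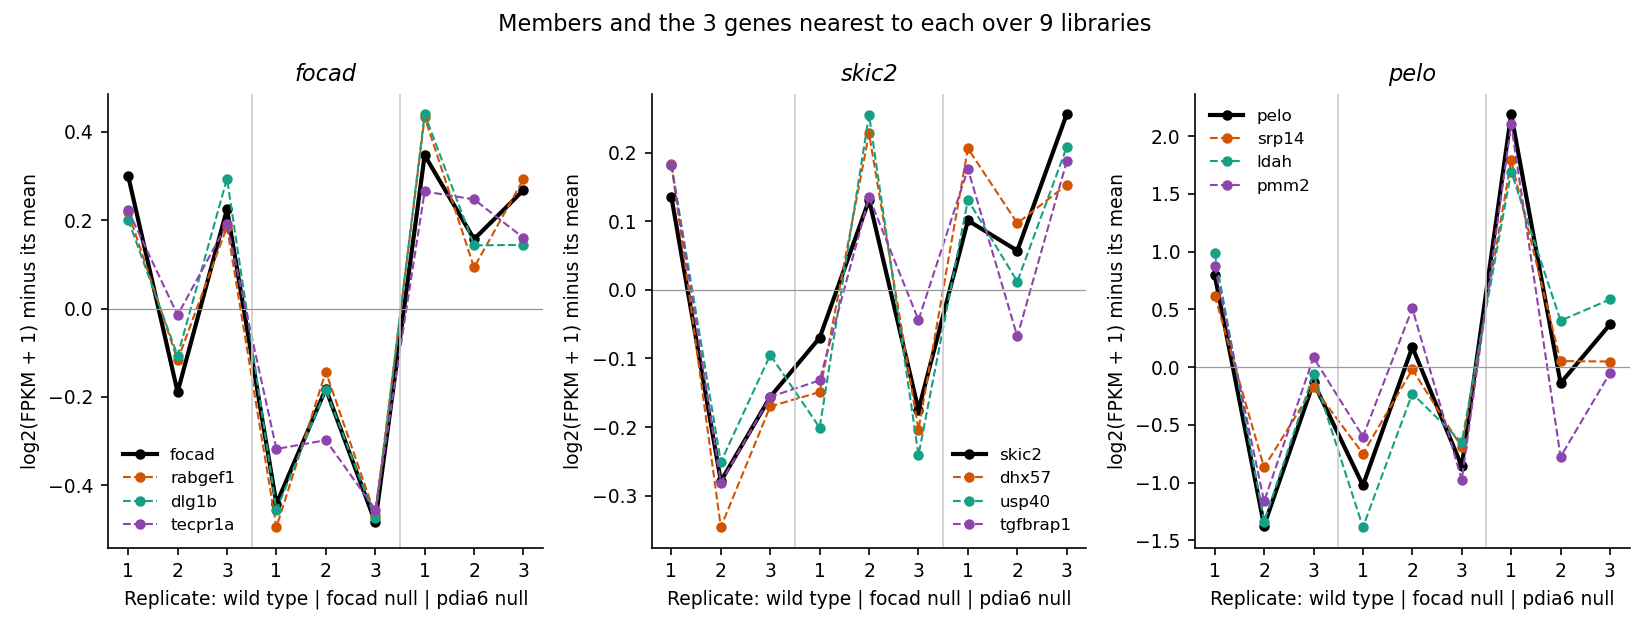
Values of log2(FPKM + 1) minus each gene's mean (vertical axis) over the 9 libraries (horizontal axis, replicates 1 to 3 of wild type, focad null and pdia6 null) for focad, skic2 and pelo (black) with the 3 nearest genes of each (dashed). Placeholder names and other members are left out of the nearest genes. Lines join the libraries for the eye only, and pelo spans from -1.37 to 2.19 where focad spans from -0.48 to 0.35.

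The pathways around the SKI complex were followed in 8 lists, for which 105 genes were tested. In these lists limma made 1 call over the 3 comparisons and limma voom on the recovered reads made 0. The call was 1 of the 105 genes in pdia6 null against wild type, where 1.23% of all genes were called. Unadjusted limma p-values below 0.05 numbered 3 of 105 genes for focad null against wild type (14.7% of all genes), 7 for pdia6 null against wild type (12.5%) and 10 for focad null against pdia6 null (17.9%). Exosc3, a cap subunit of the RNA exosome into which the SKI complex feeds messages, stood at 0.997, 1.79 and 1.71 FPKM for wild type and at 3.44, 5.39 and 5.09 for the libraries labelled pdia6 null. Exosc3 levels were 3.19, 3.47 and 4.53 FPKM for those labelled focad null, so all 6 libraries with either null label lay above all 3 of wild type. Of all genes, 20.0% in focad null and 20.6% in pdia6 null did not overlap wild type, whose libraries both comparisons share. Exosc3 rose by 1.17 in log2(FPKM + 1) in pdia6 null against wild type (SE 0.22, limma adjusted p = 0.0492), and it passed in 4 of 20 alternative settings, with adjusted p from 0.0427 to 0.173. Of the 9 fits that left out a single library, it passed in the 1 without the library labelled focad null replicate 2 (limma adjusted p = 0.0475). In focad null against wild type exosc3 differed by 0.93 (limma adjusted p = 0.0973). Its wild-type values rested on 42 to 72 reads.

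With 1.56%, 1.23% and 1.20% of all genes called in the 3 comparisons, lists of 3 to 30 genes with 0 calls lie at the background share, and the counts below say nothing particular about any list. For each list the gene with the lowest limma p in each comparison is given, as values only. The other 11 exosome subunits were not called in any comparison. The exosome median was -0.10 in focad null against wild type and 0.26 in pdia6 null against wild type, beside 0.01 and -0.01 for all genes. With single libraries left out these medians ran from -0.19 to 0.07 (above zero without wild-type replicate 1) and from -0.004 to 0.44 (below zero without pdia6 null replicate 2). Exosc4 levels were 5.10 ± 1.56 FPKM for focad null and 14.6 ± 5.18 for pdia6 null, a difference of -1.33 (limma adjusted p = 0.0899).

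Of 23 genes of ribosome rescue and ribosome-associated quality control, 0 were called in each comparison by limma. Rnf14, a ubiquitin ligase for factors trapped on stalled ribosomes whose symbol is shared by 3 gene IDs, stood at 3.06 ± 0.682 FPKM in pdia6 null and 8.25 ± 3.12 in wild type, a difference of -1.15 (limma adjusted p = 0.0947). Another tested gene ID with the rnf14 symbol differed by only -0.14 in the same comparison. Znf598, a ubiquitin ligase for collided ribosomes, stood at 3.11 ± 0.479 FPKM in focad null and 5.41 ± 1.32 in wild type (limma adjusted p = 0.279). Ascc3, a helicase that takes collided ribosomes apart, stood at 2.69 ± 0.565 FPKM in focad null and 5.50 ± 0.758 in pdia6 null (limma adjusted p = 0.110). The list median was -0.18 in focad null against wild type, from -0.19 to -0.08 with single libraries left out, and -0.02 (0.03 without pdia6 null replicate 3) in pdia6 null against wild type.

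Of 30 genes of deadenylation and decay from the 5′ end, 0 were called by limma, with medians of 0.04 (-0.04 without the library labelled focad null replicate 2) and 0.02 (-0.06 without wild-type replicate 2) against wild type in focad null and pdia6 null. The poly(A) nuclease gene parn stood at 12.8 ± 1.70 FPKM in focad null and 10.03 ± 0.172 in wild type (limma adjusted p = 0.477). Lsm3, a ring subunit gene of decapping and splicing complexes, stood at 4.53 ± 0.403 FPKM in pdia6 null, 2.48 ± 0.424 in wild type and 2.88 ± 1.33 in focad null (limma adjusted p = 0.308 and 0.281 for pdia6 null against the others). Of 11 genes of nonsense-mediated decay 0 were called by limma. Its central helicase gene upf1 stood at 6.24 ± 1.63 FPKM in focad null and 5.01 ± 0.625 in wild type (limma adjusted p = 0.625). Rbm8a, of the exon junction complex, stood at 69.5 ± 4.12 FPKM in pdia6 null and 46.1 ± 3.26 in wild type (limma adjusted p = 0.233). Upf3b, which joins that complex to decay, stood at 15.7 ± 2.77 FPKM in pdia6 null and 9.40 ± 0.160 in focad null (limma adjusted p = 0.141).

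Of 8 nuclear exosome cofactors and Ski2-like helicases 0 were called by limma. Mphosph6 stood at 5.24 ± 1.31 FPKM in focad null and 8.38 ± 0.922 in wild type (limma adjusted p = 0.312). The poly(A) polymerase gene tent4b stood at 4.35 ± 0.985 FPKM in pdia6 null, 6.46 ± 0.914 in wild type and 8.70 ± 3.50 in focad null (limma adjusted p = 0.530 and 0.189 for pdia6 null against the others). Of the 3 release factor genes and relatives of pelo and hbs1l tested, 0 were called. The lowest p in each comparison was that of the more abundant of 2 gene IDs named gspt1, the termination GTPase, at 98.0 ± 29.7 FPKM in focad null, 124 ± 10.03 in wild type and 164 ± 53.6 in pdia6 null (lowest limma adjusted p = 0.289).

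The PAF1 complex, which holds skic8 as a subunit, had 5 genes tested and 0 called by limma. Estimates were below zero for 5 of 5 in focad null against wild type, where 48.8% of all genes were, with a median of -0.26. With no scaling they were below zero for 4 of 5, beside 40.7% of all genes. Without the library labelled focad null replicate 2 they were below zero for 2 of 5, with a median of 0.04. In pdia6 null against wild type 4 of 5 were below zero, beside 50.8% of all genes, with a median of -0.04. With no scaling 2 of 5 were, beside 42.5% of all genes. Leo1 stood at 7.62 ± 0.784 FPKM in focad null, 7.83 ± 0.721 in pdia6 null and 9.36 ± 0.791 in wild type (limma adjusted p = 0.518 and 0.655 against wild type). Paf1 stood at 4.02 ± 1.97 FPKM in focad null and 5.39 ± 0.614 in pdia6 null (limma adjusted p = 0.496).

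Of 13 focal adhesion genes, listed because focadhesin is named for that structure, 0 were called by limma, with medians of -0.08 (0.02 without the library labelled focad null replicate 2) and -0.07 in focad null and pdia6 null against wild type. Ilk, a kinase-like adaptor of integrins, stood at 3.33 ± 0.843 FPKM in focad null and 5.75 ± 2.34 in wild type (limma adjusted p = 0.464). Tns1a, a tensin gene, stood at 0.0424 ± 0.00827 FPKM in pdia6 null, 1.42 ± 0.742 in wild type and 1.59 ± 1.80 in focad null (limma adjusted p = 0.351 and 0.266 for pdia6 null against the others).

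**Figure D5:**
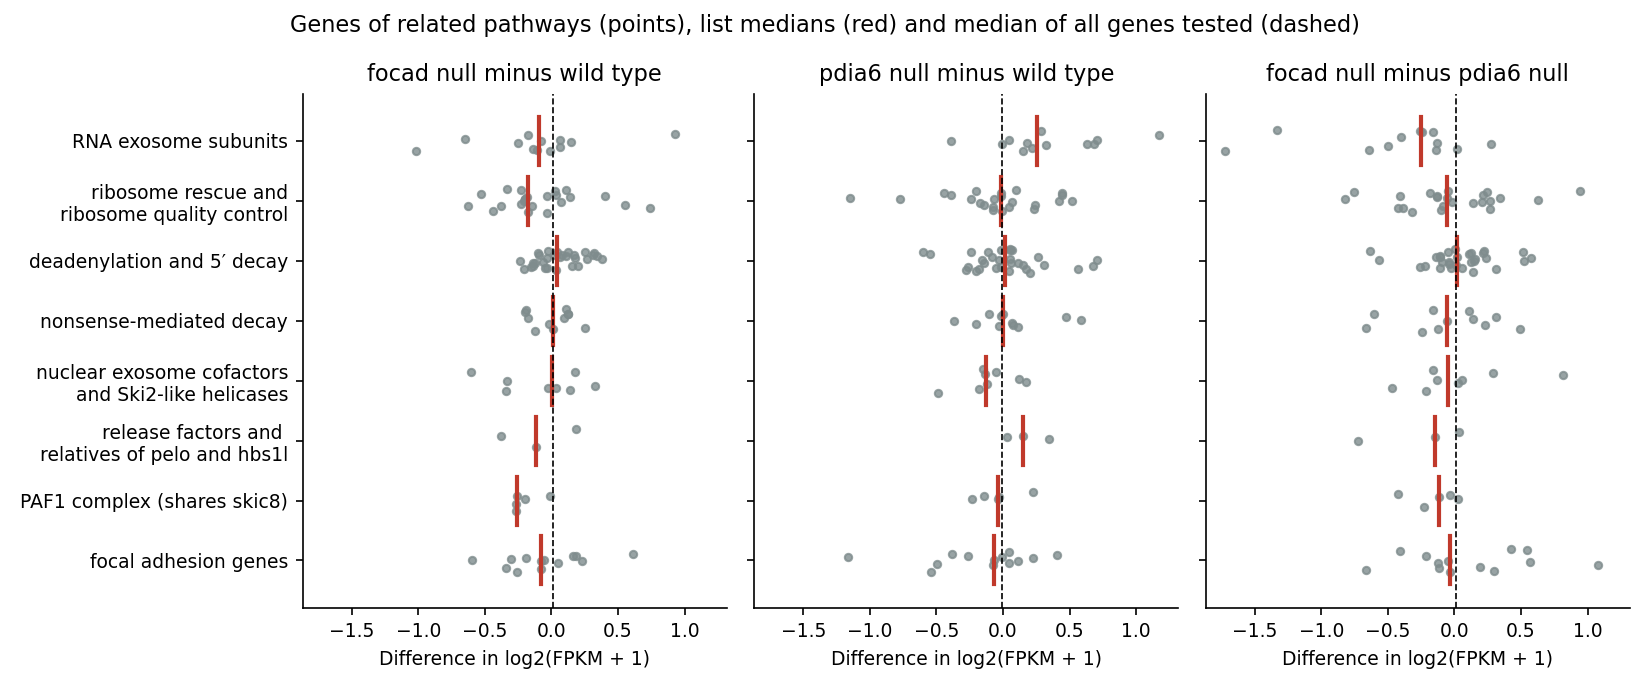
Difference in log2(FPKM + 1) (horizontal axis) of the genes tested in each of 8 related lists (vertical axis) in the 3 comparisons, with a grey point per gene, a red bar at the list median and a dashed line at the median of all 13290 genes. The points scatter on both sides of zero in most lists, and the 5 PAF1 complex genes lie below zero in focad null minus wild type, 2 of 5 of them when the library labelled focad null replicate 2 is left out.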

How the data were processed

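The members and all lists were chosen with earlier results of these data known. Total RNA came from snap-frozen livers, per the labels' protocols. TopHat2 2.0.12, Bowtie2 2.2.3 and HTSeq 0.6.1 are named, without roles, in the submitters' processing notes, as is the genome build danRer11. The authors deposited FPKM per gene and library, and tables of each null group and wild type with, per the file headers, mean read counts per group (a signal scaled by the authors in each table) and a log2 ratio. These deposited tables also give the p-value of each gene, raw and adjusted. Deposited FPKM were whole multiples of what 1 read is worth, so reads and implied gene lengths were recovered. The search for the value of 1 read accepted only whole multiples, and it solved 33697 genes. Their 164599 values below 1000 reads were whole within 0.05 by that rule, which is not a separate check. For 19 genes the search failed, and the best fitting gene length was used. Pairs of libraries within a group differed far beyond sampling noise.

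Libraries were scaled to the geometric mean profile by median ratios of the 7660 genes that reached 1 FPKM in each of 9 libraries. Values of log2(FPKM + 1), which understate the change of low genes, were fitted with limma 3.58.1 (R 4.3.3), using lmFit and a robust eBayes with trend, as 3 group means over all 9 libraries, with 6 residual degrees of freedom. All 13290 genes whose mean reached 0.5 FPKM were tested, two-sided, with Benjamini-Hochberg adjustment over all of them and a threshold of 0.05. Exact permutation tests used scipy 1.17.1. The fits were tested on simulated data whose changes were larger than any member difference, so that test does not speak to smaller differences.

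List symbols numbered 147, of which 116 matched 121 gene IDs. The rule for list genes took those called, otherwise the 2 with the lowest p, and the most abundant of a list. Those called and the lowest p of each list and comparison are printed. Hspa5, mllt3, fam81b and the neighbours of pelo were added after values were seen. Markers were summed per list. Alternatives were other pseudocounts, filters and scalings, a replicate block, a plain eBayes, a fit of only the 6 libraries compared, limma voom on the recovered reads, each library left out, wild-type replicate 1 and pdia6 null replicate 1 left out together, and the authors' tables.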

Additional observations from a re-analysis of the deposited data

How the results depend on the processing

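No member was called in any comparison under any of the 21 alternative settings, with a lowest adjusted p of 0.108 by limma, and 363 of 372 alternative member differences kept their direction. The direction turned in the following. Against wild type in focad null, skic2 was -0.028 without wild-type replicate 2 and -0.02 without focad null replicate 2. Skic8 was 0.052 and pelo 0.184 without wild-type replicate 1, and 0.053 and 0.183 with pdia6 null replicate 1 left out as well. Against wild type in pdia6 null, focad was -0.006 without wild-type replicate 2, skic8 -0.037 without pdia6 null replicate 1, and hbs1l 0.022 with no scaling. The log2 ratio of skic8 to skic2 was 0.009 without focad null replicate 2. With single libraries left out, differences from wild type in focad null ran from -0.028 to 0.18 for skic2, -0.282 to 0.053 for skic8 and -0.906 to 0.184 for pelo. In pdia6 null they ran from -0.006 to 0.24 for focad and -0.037 to 0.363 for skic8, and the ratio of skic8 to skic2 from -0.322 to 0.009. The cause was not tested.

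Focad in focad null against the 6 other libraries ran from -0.648 to -0.497 with single libraries left out, and its exact permutation p from 0.0357 to 0.143. With a focad null library left out the smallest possible p is 0.0714. Among all genes, the calls of 207, 163 and 160 in the 3 comparisons ranged over the alternatives from 89 to 484, from 74 to 256 and from 60 to 631.

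Replicate numbers are not said in the labels to pair the libraries. Correlations of same-numbered deviations ran from -0.194 to 0.286, and a library correlated best with its own number in 5 of 18 checks. Between wild type and pdia6 null they were 0.286, 0.226 and 0.01 for replicates 1 to 3, and those with focad null were of both signs. With 3 libraries a group the checks depend on each other and cannot exclude pairing. With a replicate block the calls among all genes were 121, 82 and 82, 0 members were called, and focad differed by -0.482 between focad null and wild type, as without it. Depth limits focad most, with as few as 41 reads.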
